A study of Gallus gallus with 12 samples.

Results

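The genes described here are the 55 cytosolic ribosomal protein genes measured in HTC cells, a chicken macrophage cell line, during contact with the coccidian parasites Eimeria tenella, Eimeria maxima and Eimeria acervulina. They were chosen by name, as symbols made of RPL or RPS and a digit together with RPSA and RPLP0 to RPLP2, and without the RPS6K kinases. RPSA entered through the array's symbol RPSAP58, whose current record lists RPSA as a synonym. All 55 such symbols on the array had a value on every array after the spots of a symbol were averaged, out of 2238 named features and 3700 features in all. By symbol, 34 of the 55 were counted to the large subunit, RPL7L1 among them, and 21 to the small subunit.

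The RNA, poly(A) selected per the labels, was taken from HTC cells left unstimulated or exposed to 1 of the 3 species for 4, 18 or 48 h. Neither the dose nor the parasite stage is stated in the sources used here. The 12 spotted cDNA arrays formed a closed loop of 4 arrays per species, in which every RNA was measured with both dyes. The time groups were compared with the 3 species as replicates (n = 3), and no label says that the cultures were started separately, so p-values measure the spread between these samples only. The unstimulated RNA bears 1 name in all loops and was treated as 3 samples. No label names unstimulated cells kept for 4, 18 or 48 h, so the effects of the parasite and of hours in culture cannot be told apart.

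The deposited values are log ratios, read here as log2 of Alexa555 over Alexa647. That direction was assumed, because all titles name the Alexa555 sample first. Chemokine genes then take the signs remembered from the study, which were not checked against a source here. If the dyes were divided the other way, all signs below change and lower becomes higher, while sizes, total counts and tests stay. A negative value below means less of the mRNA, relative to the other genes on the array, than in the unstimulated cells. Ratios give no level of a gene, and less of all ribosomal mRNA per cell cannot be told apart from more of other mRNA.

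Ribosomal proteins are the protein part of the ribosome, in which the small subunit reads the mRNA and the large subunit joins the amino acids. Their mRNAs are abundant in growing cells, and each ribosome holds nearly all of the proteins in equal amounts. In vertebrates most of these mRNAs start with a terminal oligopyrimidine tract, shared with elongation factor mRNAs, through which TOR signalling and LARP1 control their translation and stability.

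On the arrays themselves, the ribosomal protein genes stood apart from the other features most on 2 arrays, both of the E. acervulina loop. On the array of unstimulated over 4 h RNA their median log2 ratio was 0.50, against 0.04 for all 3700 features, and 53 of the 55 genes were positive. On the array of 18 h over 48 h RNA their median was -0.56, against 0.12 for all features, with 50 genes negative. The remaining pair of that loop had medians of -0.12 for 4 h over 18 h and -0.03 for 48 h over unstimulated. In these deposited ratios, then, the unstimulated and 48 h RNA lay on the high side and the 4 h and 18 h RNA on the low side.

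The E. tenella arrays gave medians of 0.13 for unstimulated over 4 h, -0.10 for 4 h over 18 h, -0.18 for 18 h over 48 h and -0.23 for 48 h over unstimulated. In the E. maxima loop, hybridised in the opposite order, medians were -0.08 for unstimulated over 48 h, -0.05 for 48 h over 18 h, -0.04 for 18 h over 4 h and -0.20 for 4 h over unstimulated. All but 1 of these medians are negative whichever RNA is on top, and the dye term of a fit to the arrays had a median of -0.08 over the ribosomal genes against 0.05 over all features. It passed the threshold of that fit for RPS12 and RPS7, both below 0, beside a background of 2.27% of all features. A constant dye effect of a gene cancels in the loop levels used from here on.

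**Figure D1:**
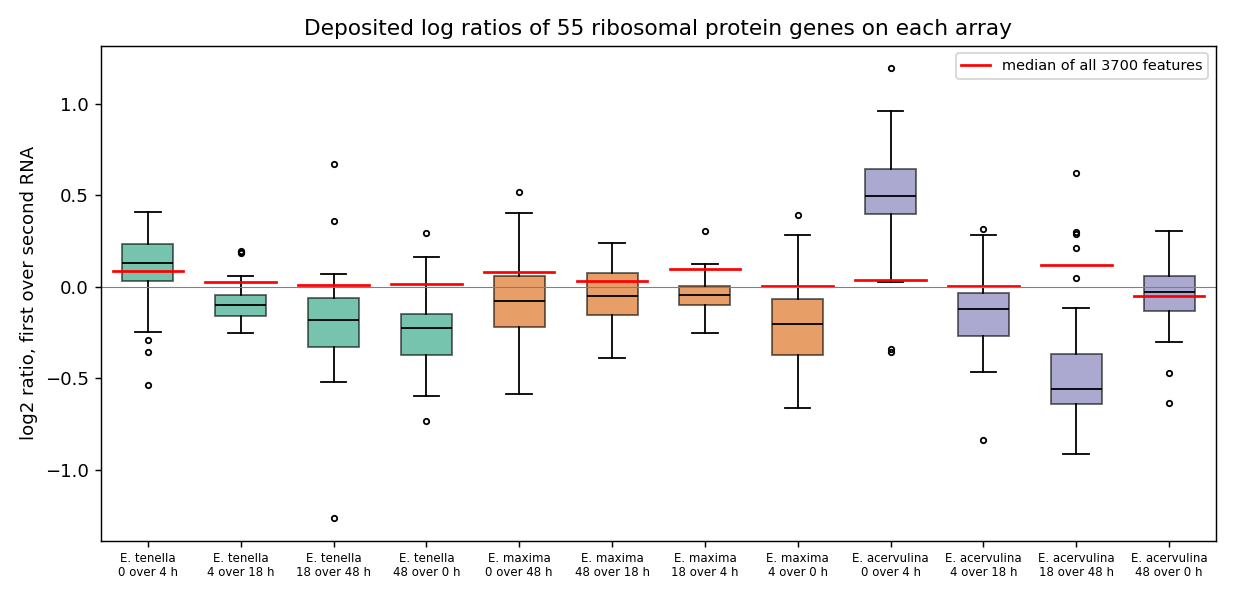
Boxes give the quartiles of the deposited log2 ratios of the 55 ribosomal protein genes on each of the 12 arrays, named by the first over the second RNA, with the usual boxplot whiskers and single genes beyond them as circles. The red line is the median of all 3700 features. The E. acervulina arrays of 0 over 4 h and 18 over 48 h sit farthest from 0, at 0.50 and -0.56.

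At 4 h the ribosomal protein genes were lower than in unstimulated cells almost as a block, and 53 of 55 had a negative common change, that is, a negative mean of the log2 changes in the 3 species. The median common change was -0.32, against -0.03 for all features, of which 54.1% were negative. In 36 genes the change was negative in each species, which is 65.5% of them against 31.0% of all features. A limma fit to the RNA levels with Benjamini-Hochberg adjustment over 3700 features called 6 of the 55 lower and none higher, beside a background of 5.89% of all features called lower. At an unadjusted p under 0.05 there were 31 lower genes and 1 higher, RPS16, beside 29.2% of all features in either direction. Without E. acervulina the median was -0.19.

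RPL3, which reaches toward the peptidyl transferase centre, had the lowest common change of the 55 genes. Its log2 change at 4 h was -0.50 with E. tenella, -0.47 with E. maxima and -1.22 with E. acervulina, a mean of -0.73 ± 0.42 (SD, n = 3; limma adjusted p = 0.024). RPL12, a protein of the stalk base where elongation factors dock, had changes of -0.55, -0.45 and -1.06 in the same order of species, a mean of -0.69 ± 0.32 (SD, n = 3; limma adjusted p = 0.027). For both genes all 3 species lay below 0, and E. acervulina was the lowest. On the arrays, RPL3 stood at 0.41, -0.22, -0.52 and -0.04 in the E. tenella loop (unstimulated over 4 h, 4 h over 18 h, 18 h over 48 h, 48 h over unstimulated) and at 1.20, -0.35, -0.80 and -0.14 in the E. acervulina loop. In the E. maxima loop it stood at -0.04 for unstimulated over 48 h, 0.20 for 48 h over 18 h, 0.13 for 18 h over 4 h and -0.53 for 4 h over unstimulated. In each loop the arrays with the 4 h RNA put that RNA on the low side.

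RPL17, a protein at the exit of the peptide tunnel, changed by -0.41, -0.38 and -0.92, a mean of -0.57 ± 0.31 (SD, n = 3; limma adjusted p = 0.047). RPL39L, the array's symbol for a gene whose current record lists RPL39 as a synonym and whose product lines the tunnel, changed by -0.42, -0.51 and -0.77, a mean of -0.56 ± 0.18 (SD, n = 3; limma adjusted p = 0.038). RPL38, known in mice for its part in the translation of Hox mRNAs, changed by -0.50, -0.36 and -0.52, a mean of -0.46 ± 0.087 (SD, n = 3; limma adjusted p = 0.031). Among the genes called at 4 h, RPL38 had the smallest SD over species. RPS15, in the head of the small subunit, was the only called gene of that subunit, with changes of -0.35, -0.36 and -0.67 and a mean of -0.46 ± 0.18 (SD, n = 3; limma adjusted p = 0.042).

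None of these 6 calls survived when any 1 species was left out or when the unstimulated RNA was taken as 1 shared sample. Both kinds of fit had fewer samples, and the fit with the shared sample also had no species block. The 32 genes at an unadjusted p under 0.05 became 7 without E. acervulina and 3 with the shared unstimulated RNA. RPL3 kept its call when arrays were centred and scaled, and RPL3, RPL12 and RPL38 when they were only centred. The count of negative genes stayed between 51 and 53 of 55 in all settings that kept the 55 genes.

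**Figure D2:**
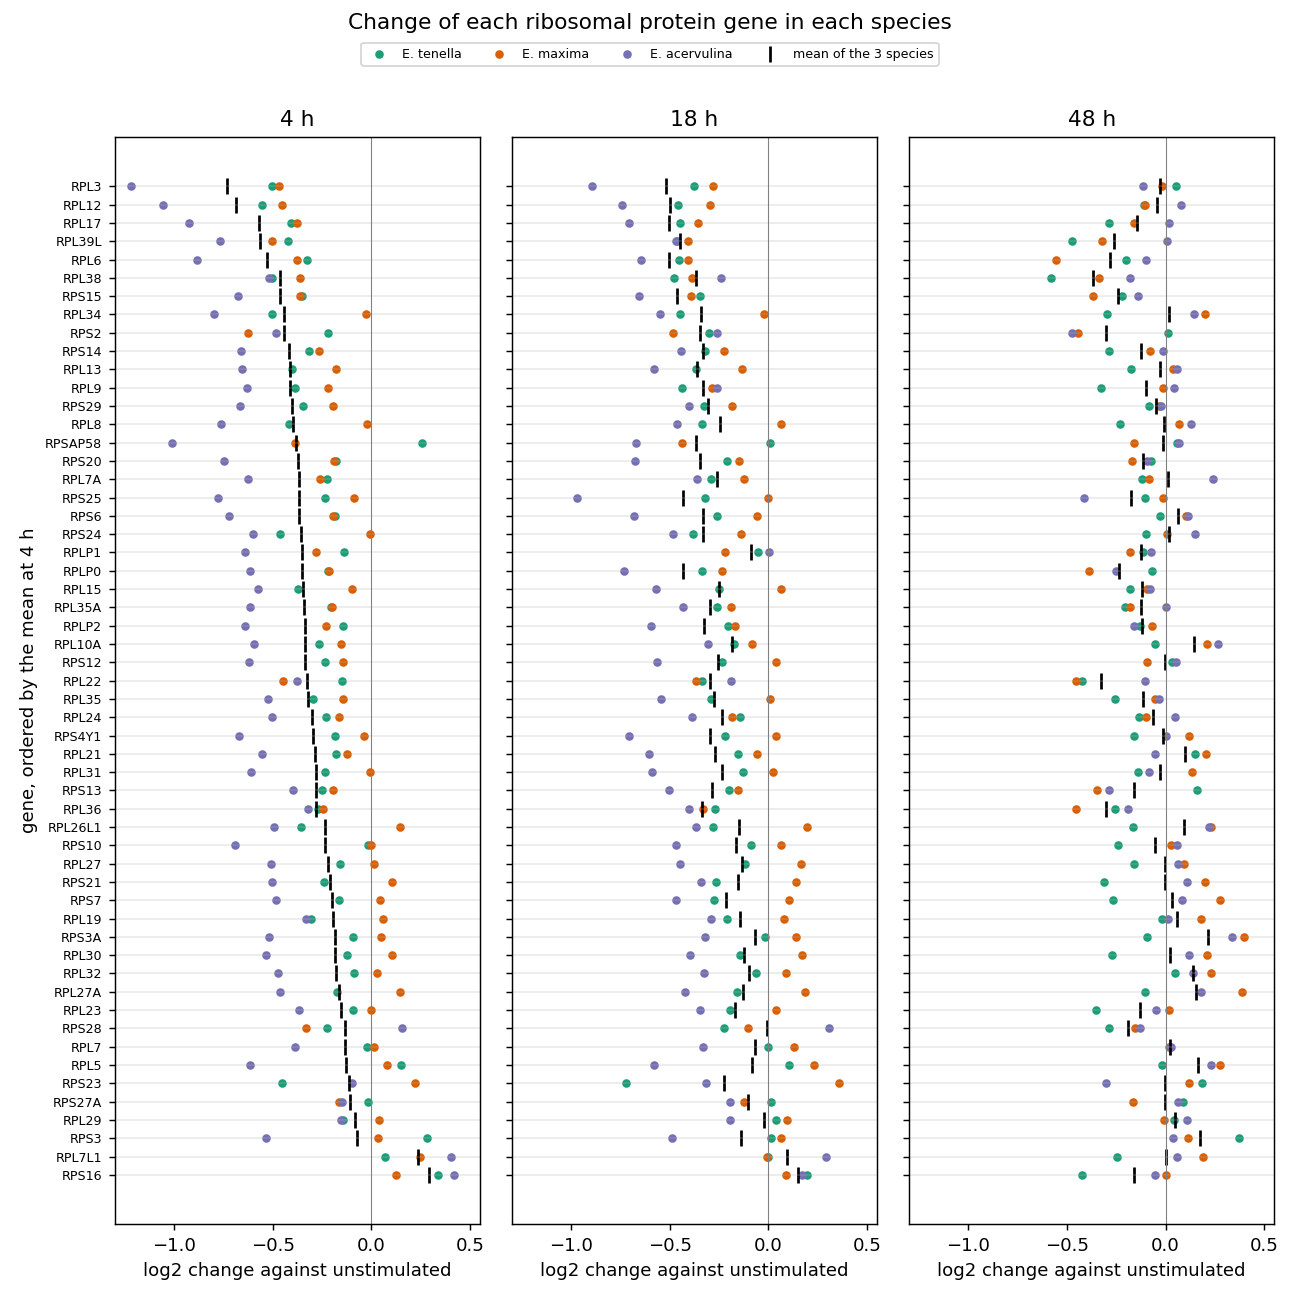
Each row is 1 of the 55 genes, ordered by its mean log2 change at 4 h. Points give the change against unstimulated cells in the E. tenella, E. maxima and E. acervulina loops, the tick their mean, and the panels the 3 times. At 4 h the means run from -0.73 (RPL3) to 0.30 (RPS16), and by 48 h most ticks lie near 0.

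At 18 h the pattern was still there and slightly smaller. The median common change was -0.26, against a value of 0.00 to 2 decimals for all features. Again 53 of 55 genes were negative, against 50.5% of all features. In 27 genes the change was negative in each species, which is 49.1% of them against 24.9% of all features. No gene passed the limma threshold, beside 0.486% of all features called lower, and 21 were lower at an unadjusted p under 0.05, beside 26.7% of all features in either direction. The lowest common changes were those of RPL3 (-0.52), RPL17 (-0.50), RPL6 (-0.50), RPL12 (-0.50) and RPS15 (-0.47). RPL3 had -0.37 with E. tenella, -0.28 with E. maxima and -0.89 with E. acervulina, and RPS15 had -0.35, -0.39 and -0.65. Both were still below 0 in each species. The arrays hold no direct comparison of 18 h with unstimulated RNA, so these values carry more array error than those at 4 or 48 h. Without E. acervulina the median was -0.16 and 45 of 55 genes were negative.

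At 48 h the mean over species of the ribosomal genes was near that of the other features, while the species differed. The median common change was -0.03, the same to 2 decimals as that of all features, and 26 of the 55 genes lay below the median of all features. The count of negative genes, 37 of 55, became 26 when each array was centred on its median, so no direction is given for the group at 48 h. With E. tenella the median change was -0.14, against -0.01 for all features, and 43 of the 55 genes lay below the median of all features. With E. maxima it was -0.01 against -0.02, with 25 genes below, and with E. acervulina 0.02 against -0.08, with 16 below. No gene passed the limma threshold, beside 1.86% of all features called lower and 1.73% called higher, and 4 were lower at an unadjusted p under 0.05, beside 25.6% of all features in either direction. The 5 highest were RPS3A (0.21), RPS3 (0.17), RPL5 (0.16), RPL27A (0.15) and RPL10A (0.14).

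The comparison of 48 h with 4 h sets stimulated RNAs against each other, and in each loop it averages the path of arrays through the 18 h RNA and the path through the unstimulated RNA. Its median over the ribosomal genes was 0.24, against 0.01 for all features, and 50 of 55 genes were higher at 48 h. RPL3 rose by 0.56, 0.45 and 1.10 with E. tenella, E. maxima and E. acervulina, a mean of 0.70 ± 0.35 (SD, n = 3; limma adjusted p = 0.035). RPL12 rose by 0.45, 0.34 and 1.13, a mean of 0.64 ± 0.43 (SD, n = 3; limma adjusted p = 0.040). They were the only ones of the 55 past the threshold, beside 3.30% of all features called higher and 3.84% called lower. That count is near the share of all features called higher. Leaving out any 1 species, or taking the unstimulated RNA as 1 shared sample, ended both calls, and without E. acervulina the median was 0.09.

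Of the smaller steps, 18 h against 4 h had a median of 0.05 over the ribosomal genes against 0.03 over all features. No ribosomal gene was called by limma, and 0.0270% of all features were. None of the 55 had an unadjusted p under 0.05, beside 13.4% of all features. From 18 h to 48 h the median was 0.22 against -0.03, with 50 of 55 genes positive. Neither a ribosomal gene nor any other feature (0%) was called by limma for that step, and 9 ribosomal genes were higher and 1 lower at an unadjusted p under 0.05, beside 13.5% of all features in either direction.

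Averaged over the 3 times, 5 of the 55 genes were called lower by limma, beside 6.30% of all features called lower and 4.16% called higher: RPL38, RPL39L, RPS15, RPS2 and RPL36. That mean includes the 4 and 18 h values, and at 48 h alone none of the 55 was called (lowest limma adjusted p = 0.089). At 48 h RPL39L stood at 0.01 with E. acervulina and RPS2 at 0.01 with E. tenella. RPL38 changed by -0.50, -0.48 and -0.58 at 4, 18 and 48 h with E. tenella, by -0.36, -0.39 and -0.34 with E. maxima, and by -0.52, -0.24 and -0.18 with E. acervulina. All 9 values were negative, and their mean over times and species was -0.40 ± 0.11 (SD, n = 3; limma adjusted p = 0.031). RPL36, a large-subunit protein, changed by -0.27, -0.27 and -0.26 with E. tenella, by -0.24, -0.33 and -0.46 with E. maxima, and by -0.32, -0.40 and -0.19 with E. acervulina. Its mean was -0.30 ± 0.039 (SD, n = 3; limma adjusted p = 0.044), among the smallest spreads over species of the 55 genes.

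RPS2, a small-subunit protein at the mRNA entry, changed by -0.22, -0.30 and 0.01 at the 3 times with E. tenella, by -0.62, -0.49 and -0.45 with E. maxima, and by -0.48, -0.26 and -0.47 with E. acervulina. Its mean was -0.36 ± 0.18 (SD, n = 3; limma adjusted p = 0.049). The means of RPL39L and RPS15 were -0.42 ± 0.025 (SD, n = 3; limma adjusted p = 0.048) and -0.39 ± 0.092 (SD, n = 3; limma adjusted p = 0.041). RPL6 (-0.44), RPL3 (-0.42), RPL12 (-0.41) and RPL17 (-0.41) had means as low, with adjusted p between 0.062 and 0.065. Of the 5 calls, RPL38 remained when each array was centred, none remained when arrays were also scaled, and none remained when a species was left out.

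RPL22, a large-subunit protein needed for T cell development in mice, had common changes of -0.32, -0.30 and -0.33 at 4, 18 and 48 h. In the E. tenella loop its values at these times were -0.15, -0.34 and -0.42. The E. maxima loop gave -0.45, -0.37 and -0.46, and the E. acervulina loop -0.38, -0.19 and -0.10, so the order of the times differed between species. It did not pass the threshold for the mean of the 3 times (-0.32 ± 0.10, SD, n = 3; limma adjusted p = 0.062). RPL3, by contrast in its values, had common changes of -0.73, -0.52 and -0.03. At 48 h the 5 lowest genes were RPL38 (-0.37), RPL22 (-0.33), RPL36 (-0.30), RPS2 (-0.30) and RPL6 (-0.28), and only RPL6 was among the 5 lowest at 4 h. These orders describe the values, and the difference between genes was not tested.

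**Figure D3:**
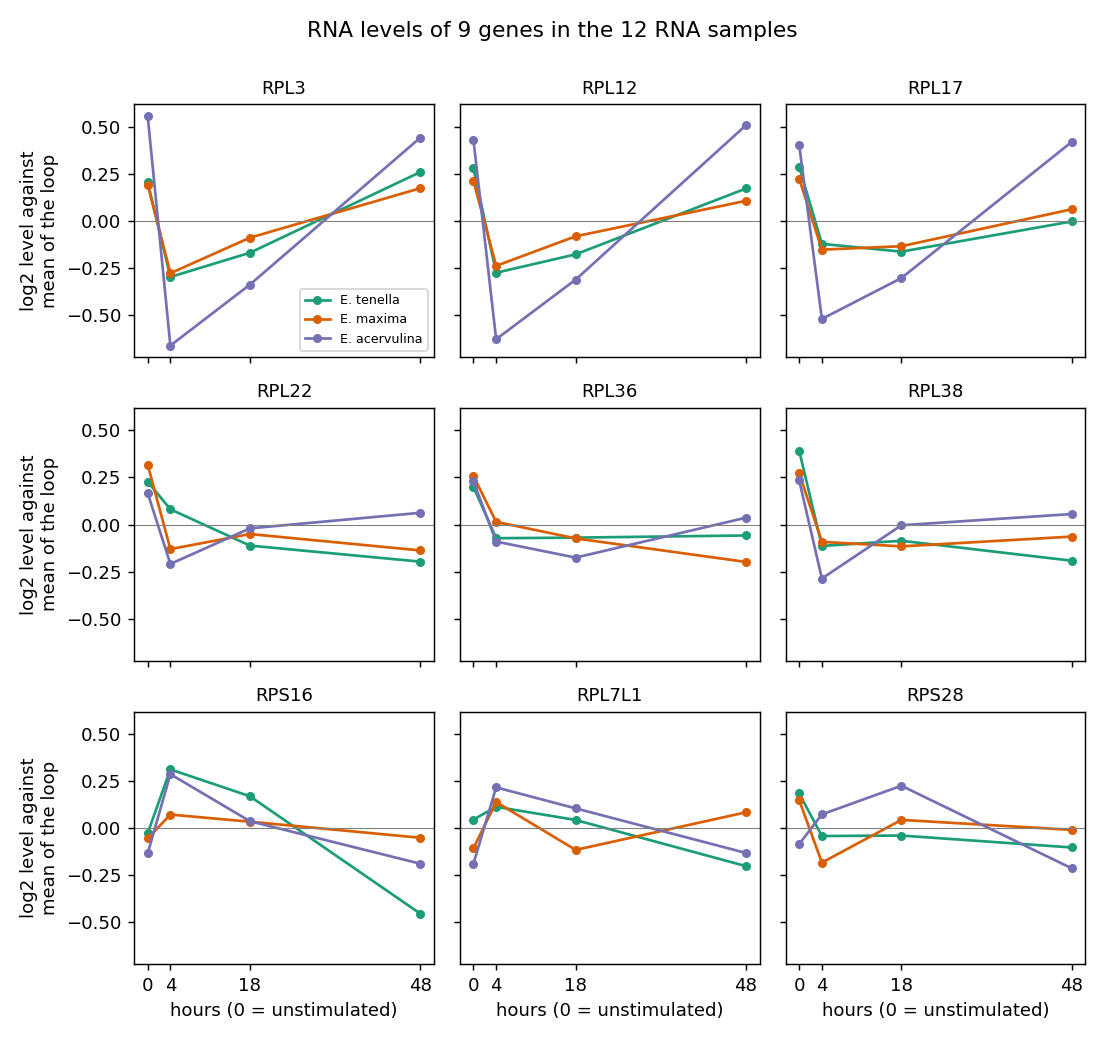
RNA levels of 9 genes in the 12 RNA samples, as log2 against the mean of the 4 RNAs of a loop, with hours to scale on the horizontal axis and 1 line per species. RPL3 and RPL12 are lowest at 4 h in every species and near the unstimulated level at 48 h, RPL22, RPL36 and RPL38 are still below it at 48 h, and RPS16 and RPL7L1 are highest at 4 h.

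The large and small subunit could not be told apart by their size of change against unstimulated cells. At 4 h the median was -0.33 over 34 large-subunit genes and -0.30 over 21 small-subunit genes. The large minus small difference within a species was -0.0095 with E. tenella, -0.0032 with E. maxima and 0.015 with E. acervulina, a mean of 0.00074 ± 0.013 (SD, n = 3). The median change itself, beside it, was -0.23, -0.14 and -0.60 in the same species. At 18 h the differences were -0.021, -0.0084 and 0.041, a mean of 0.0037 ± 0.033 (SD, n = 3), and at 48 h -0.071, 0.0026 and 0.017, a mean of -0.017 ± 0.048 (SD, n = 3). At all 3 times the spread over species exceeded the mean difference. From 4 h to 18 h the difference was above 0 in each species, at 0.056, 0.013 and 0.066, a mean of 0.045 ± 0.028 (SD, n = 3). From 18 h to 48 h and from 4 h to 48 h the means were -0.027 ± 0.036 and -0.0020 ± 0.021 (SD, n = 3), with species on both sides of 0. With 3 species an exact two-sided permutation of signs cannot give a p below 0.25, so no test was run.

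Negative common changes at 4 h numbered 33 of 34 for the large and 20 of 21 for the small subunit, and the same held at 18 h. The single exception was RPL7L1 in one and RPS16 in the other. The SD over genes of the change at 4 h was 0.21 ± 0.055 in the large and 0.25 ± 0.070 in the small subunit (SD over species, n = 3). The small minus large difference in this SD was 0.056 with E. tenella, 0.0036 with E. maxima and 0.059 with E. acervulina, a mean of 0.040 ± 0.031 (SD, n = 3). At 18 h these SDs were 0.19 ± 0.033 and 0.23 ± 0.052, and at 48 h 0.17 ± 0.053 and 0.20 ± 0.0097. The small subunit had the larger SD in 3 of 3 species at 4 h and at 18 h and in 2 of 3 at 48 h, and this was not tested either.

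**Figure D4:**
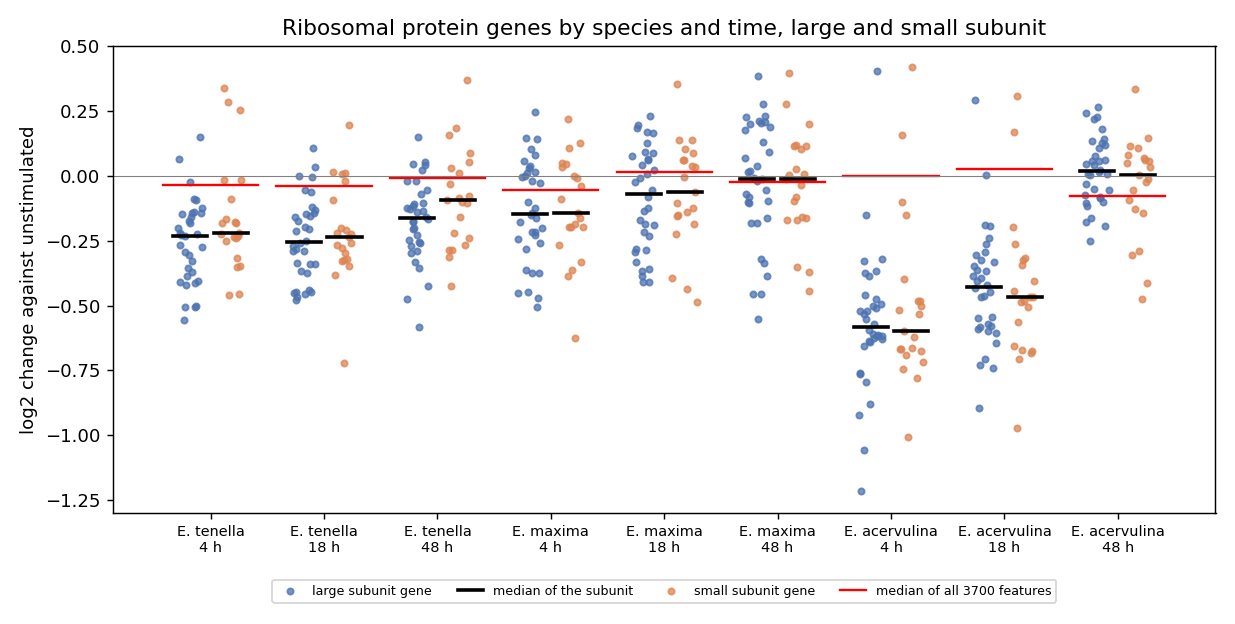
Log2 change against unstimulated cells of each large-subunit (blue) and small-subunit (orange) gene by species and time, with the median of each subunit in black and that of all 3700 features in red. The paired black bars lie close together in every species and time, at -0.58 and -0.60 in E. acervulina at 4 h.

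In each species the group was nearest to the unstimulated level at 48 h, and the species differed in size. The median log2 change of the 55 genes was -0.23, -0.25 and -0.14 at 4, 18 and 48 h with E. tenella, with 50, 48 and 43 genes negative. It was -0.14, -0.06 and -0.01 with E. maxima, with 38, 32 and 29 genes negative. With E. acervulina it was -0.60, -0.45 and 0.02, with 52, 51 and 23 genes negative. Over all features the medians were -0.03, -0.04 and -0.01 with E. tenella and -0.06, 0.01 and -0.02 with E. maxima. With E. acervulina they were 0.00012, 0.03 and -0.08. Below these medians lay 47, 46 and 43 of the 55 genes with E. tenella. With E. maxima 32, 33 and 25 lay below, and with E. acervulina 52, 52 and 16. E. acervulina had the lowest change of the 3 species for 48 genes at 4 h and 46 at 18 h, and for 7 at 48 h, when E. tenella was lowest for 35. Among all features E. acervulina was the lowest for 30.62% at 4 h, 30.05% at 18 h and 34.14% at 48 h. The share of all features lowest in E. tenella is not given here.

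This difference in size between species was not shown gene by gene. A limma F test between species of the change averaged over the 3 times called none of the 55 genes and 0% of all features. In that test the 3 times of a species served as its replicates, and they share its unstimulated RNA. Its p-values therefore rest on no independent replicates of a species. None of the 55 had an unadjusted p under 0.05, while 3.05% of all features did. The average includes 48 h, and the differences at 4 h or 18 h alone were not tested. The E. acervulina values rest on 1 RNA per time and mostly on the 2 arrays described above.

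A fit to the 12 arrays sets each RNA against array error with 2 residual degrees of freedom and compares RNA samples, not conditions. For E. acervulina at 4 h it called 39 of 55 genes lower and 1 higher by limma, beside 10.5% of all features called lower. They were 23 of the 34 large-subunit and 17 of the 21 small-subunit genes, and the 1 higher gene was RPS16 (0.42). When arrays were centred and scaled the count was 14 in place of 40. No ribosomal gene was called for E. acervulina at 18 h or at 48 h by limma, beside 0.784% and 0% of all features. At an unadjusted p under 0.05 there were 41 and 5 of the 55, beside 27.2% and 26.9% of all features.

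The same fit called 4 ribosomal genes lower for E. maxima at 4 h, namely RPS2 (-0.62), RPL39L (-0.51), RPL3 (-0.47) and RPL22 (-0.45), beside 10.4% of all features. At 48 h with E. maxima it called RPL6 (-0.55), RPL22 (-0.46) and RPS2 (-0.45) lower and RPL27A (0.38) and RPS3A (0.40) higher, beside 25.1% of all features in either direction. Both counts are below the share of all features. For E. tenella it called RPL38 at 48 h (-0.58), beside 5.24% of all features called lower. It called none of the 55 for E. tenella at 4 h and 18 h or for E. maxima at 18 h by limma, beside 1.19%, 0.568% and 0% of all features, and 20, 12 and 6 had an unadjusted p under 0.05, beside 26.4%, 25.6% and 28.9% of all features.

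The 3 widest ranges over species in the mean change of the 3 times belonged to small-subunit genes. RPS25, which in yeast and mammals is needed by some viral internal ribosome entry sites, had mean changes of -0.22 with E. tenella, -0.03 with E. maxima and -0.72 with E. acervulina, a range of 0.69. The laminin receptor gene RPSA, listed as RPSAP58 on the array, had 0.11, -0.33 and -0.54, a range of 0.64. RPS23, a protein of the decoding centre, had -0.33, 0.23 and -0.24, a range of 0.56, and its single array of E. tenella 18 h over 48 h RNA stood at -1.27. The RPS23 row with a value on every array had a common change of 0.15 over the 3 times, against -0.11 for the average of its rows. How far missing spots shape the range of RPS23 was not tested. The narrowest ranges were those of RPL39L (0.05), RPL36 (0.08) and RPL7A (0.09). RPL7A had mean changes of -0.21, -0.16 and -0.25.

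Within the group, the spread between genes was small beside that of other features. The SD over the 55 genes of the common change was 0.18, 0.15 and 0.14 at 4, 18 and 48 h, against 0.38, 0.35 and 0.33 over all 3700 features. Over the 12 RNA levels the Pearson correlation of a gene with the mean of the other 54 had a median of 0.89, and 50 genes (90.9%) exceeded 0.5, against 16.5% of all features. The levels of a loop share arrays and sum to 0, so this is a description. Each ribosomal gene also averages several rows, while unnamed features are single rows. How far this alters the SDs and correlations was not tested. Without the E. acervulina loop, over 8 levels, the median was 0.70 and 38 genes exceeded 0.5, against 23.4% of all features. RPL17 (0.98) and RPL13 (0.98) followed the others most closely.

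Of the 55, 5 followed them poorly over the 12 levels: RPS2 (0.43), RPS23 (0.18), RPS28 (-0.35), RPS16 (-0.62) and RPL7L1 (-0.73). RPS16, a protein of the small-subunit head, had changes at 4, 18 and 48 h of 0.34, 0.20 and -0.43 with E. tenella, of 0.13, 0.09 and 0.00 with E. maxima, and of 0.42, 0.17 and -0.05 with E. acervulina. Its common change of 0.30 ± 0.15 at 4 h (SD, n = 3; limma adjusted p = 0.16) and its step of -0.45 from 4 h to 48 h (limma adjusted p = 0.065) did not pass the threshold. RPL7L1, a paralog of RPL7 that in mammals takes part in ribosome assembly and is not a standard subunit protein, had changes at 4 h of 0.07, 0.25 and 0.40, a mean of 0.24 ± 0.17 (SD, n = 3; limma adjusted p = 0.21). RPS16 and RPL7L1 were the only genes of the 55 that were positive at 4 h in each species.

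RPS28 was at -0.23 and -0.33 with E. tenella and E. maxima at 4 h but at 0.16 with E. acervulina, where it reached 0.31 at 18 h. RPL5 and RPS3 were positive at 4 h with E. tenella (0.15 and 0.28) and E. maxima (0.08 and 0.03) and stood at -0.62 and -0.53 with E. acervulina. The 2 RPL5 clones behind that average had opposite signs with E. tenella, at 0.41 and -0.14. They stood at 0.11 and 0.00 with E. maxima and at -0.55 and -0.68 with E. acervulina. RPL5 binds MDM2 in mammals as part of a particle with ribosomal RNA, and RPS3 lines the mRNA entry.

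The proteins of the stalk, which recruits elongation factors, were in the middle of the order at 4 h, where RPLP1, RPLP0 and RPLP2 had ranks 21, 22 and 25 from the lowest of the 55 genes. At 18 h their ranks in that order were 48, 7 and 20, where RPLP1 averages 2 clones at -0.41 and 0.25. RPLP0 had common changes of -0.35, -0.43 and -0.24 at 4, 18 and 48 h. RPLP1 had -0.35, -0.09 and -0.12, and RPLP2 had -0.34, -0.32 and -0.12. RPSAP58 had -0.38, -0.37 and -0.01, with an SD over species of 0.63 at 4 h, and its 4 h values were 0.26, -0.39 and -1.01 with E. tenella, E. maxima and E. acervulina. RPS6, the substrate of S6 kinase downstream of TOR, had -0.37, -0.33 and 0.06. In the fit on time, none of these 5 genes passed the limma threshold at any time. In the fit to arrays, RPLP1, RPLP2, RPSAP58 and RPS6 were among the genes called lower for E. acervulina at 4 h. That was beside 10.5% of all features called lower.

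For 13 genes more than 1 cDNA clone carried the symbol, and for 12 of them at least 2 clones had values on every array (RPS3 was the other). At 4 h the clones of a gene spanned a median of 0.086, and repeated rows of the same clone had a median SD of 0.032. The 3 RPL35A clones stood at -0.35, -0.32 and -0.34, the RPL39L clones at -0.59 and -0.54 and the RPL7A clones at -0.36 and -0.36. The RPL9 clones stood at -0.41 and -0.42, the RPL23 clones at -0.14 and -0.19 and the RPL29 clones at -0.15, 0.04 and -0.15. RPL7 spanned the most, with clones at -0.22, -0.55 and 0.34, so its averaged change of -0.13 describes none of them. The third RPL7 clone was positive at 4 h in each species, at 0.54, 0.21 and 0.27, while the second was negative in each. RPL5 had clones at -0.01 and -0.27. RPS27A, whose product is a fusion of ubiquitin and a small-subunit protein, had clones at -0.26 and 0.02, and RPLP1 had clones at -0.41 and 0.25 at 18 h. Whether each such clone holds the gene it is named for was not tested, and cDNA probes of ribosomal protein genes can also bind mRNA of near copies.

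**Figure D5:**
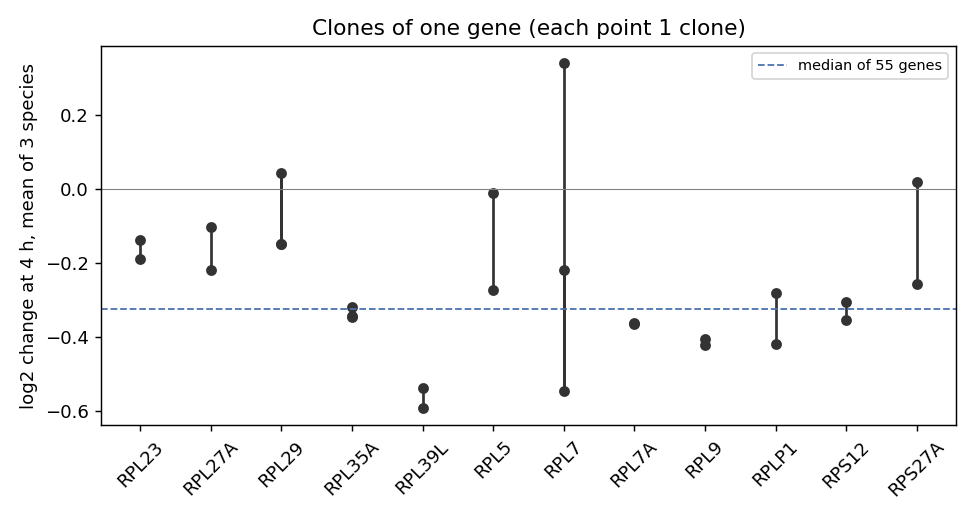
Mean log2 change at 4 h over the 3 species of each cDNA clone (point) of the 12 genes with at least 2 measured clones, with a line joining clones of 1 gene. The dashed line is the median of the 55 genes. The clones of RPL35A and RPL7A nearly coincide, and those of RPL7 span 0.89.

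Other genes of the translation machinery were read from lists chosen with earlier results of these data known, so their counts are no independent support. The alternative settings were read out for the ribosomal protein genes only. How the calls in this and the following lists depend on the processing is therefore not known. RACK1, a small-subunit scaffold outside the naming rule, had common changes of -0.29, -0.24 and -0.01 at 4, 18 and 48 h and was not called. Of 22 elongation and initiation factors and other genes reported to carry the terminal oligopyrimidine tract in mammals, 15 were measured. At 4 h 6 of them were called lower and none higher, beside 5.89% and 4.51% of all features called lower and higher. The 6 were EEF1B2 (-0.79), EEF2 (-0.71), EIF3H (-0.66), EIF3E (-0.60), EIF3L (-0.44) and EEF1A1 (-0.39). The same 6 were called higher at 48 h than at 4 h, by 0.50 to 1.07. So was TPT1 (0.43), beside 3.30% of all features called higher. The median of the list at 4 h was -0.28, and 11 of the 15 were negative. VIM (0.34), HNRNPA1 (0.32), BTF3 (0.31) and NPM1 (0.0054) were above 0 and not called. From 4 h to 48 h 4 of the 15 had a negative change, HNRNPA1 the most (-0.72).

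Of 7 measured genes of ribosome biogenesis, only NSA2, which in yeast acts in large-subunit assembly, passed the threshold. It fell at 4 h (-0.77 ± 0.23, SD, n = 3; limma adjusted p = 0.010) and at 18 h (-0.60; limma adjusted p = 0.048), and rose from 4 h to 48 h (0.55; limma adjusted p = 0.033). Of all features, 5.89% and 0.486% were called lower at 4 h and 18 h, and 3.30% higher from 4 h to 48 h. NCL, nucleolin, had 0.16 at 4 h and GNL3, nucleostemin, 0.32, neither past the threshold. The list's median at 4 h was 0.05. Of 6 measured genes of TOR signalling, RICTOR rose at 48 h (0.87; limma adjusted p = 0.039), and LARP1, which binds the oligopyrimidine tract, was higher over the mean of the 3 times (0.44; limma adjusted p = 0.044). Of all features, 1.73% were called higher at 48 h and 4.16% for the mean of the 3 times. MTOR itself had 0.19, -0.04 and -0.01 at the 3 times. How these genes bear on the ribosomal changes was not tested.

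The mitochondrial ribosome, built from a separate set of proteins, gave other values. Of its 17 measured genes, MRPL35 (-0.64), MRPL33 (-0.49) and MRPS21 (-0.47) were called lower at 4 h, beside 5.89% of all features. The list median at 4 h was -0.13, and 12 of the 17 were negative. At 48 h MRPL35 (-0.71) and MRPL33 (-0.49) were called lower, beside 1.86% of all features. The median at 48 h was -0.26 and all 17 were negative, MRPL46 by no more than -0.01, while the cytosolic median was -0.03. Whether the 2 sets of genes differ was not tested.

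The label of the cells was read from ratios only, which show changes and no levels. Of 15 measured macrophage markers, LYZ (-0.93), LY96 (-0.96) and TLR2A (-0.81) were called lower at 4 h and CTSD (1.27) higher. Of all features, 5.89% and 4.51% were called lower and higher. At 4 h 8 of the 15 markers were negative. At 18 h 12 of the 15 were negative and none was called lower, beside 0.486% of all features. At 48 h 11 of the 15 were negative. TLR2A (-1.35) and CYBB (-0.89) were then called lower, beside 1.86% of all features. The markers of other cell types measured on all arrays were 1 of 10 for fibroblasts, 2 of 9 for erythroid cells, 3 of 9 for T cells and 0 of 7 for B cells, and none passed the threshold at any time. FN1, the fibroblast marker, stood at 0.38 at 4 h and the erythroid genes HBA1 and HBBA at -0.15 and -0.11. Their part in the ribosomal changes was not tested.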

How the data were processed

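Per the labels' protocols, 12 two-channel cDNA arrays of HTC cells were measured. The authors deposited 1 log ratio per spot and array, taken here as log2 because that is usual. The sources used here do not give the base, background correction, normalization, numerator dye or intensities, so precision is set by the 12 arrays. Another base would rescale the changes and leave the tests. Of 14718 rows, between 5.30% and 17.1% were missing on an array. Rows were named from the platform annotation, and rows of a symbol were averaged. RNA levels were estimated by least squares within each loop. The 12 levels were fitted with limma (version 3.58.1, R 4.3.3) on time, blocked by species, which left 6 residual degrees of freedom. Species were compared with an F test with 4, and RNA samples with array error in a fit to arrays with 2. Tests were two-sided, with Benjamini-Hochberg adjustment over 3700 features and a threshold of 0.05. On simulated data the time fit was tested with set changes and the species F test with none. The output of the array fit was not checked in this way.

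The members and lists were chosen with earlier results of these data known. Genes are named where they passed a threshold, stood among the 5 lowest or highest at a time or the extremes of a species, had the 3 widest or narrowest ranges over species, carried several clones or a paralog's name, or belong to RPSA and the stalk; RPS6, RPL13, RPS28 and RPL22 by their values or role. Alternatives changed the centring, scaling, missing-value rule, row averaging, clones, the unstimulated RNA and the species included. No sequence was used here.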

Additional observations from a re-analysis of the deposited data

Results flagged for a closer look

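For 11 of the 55 genes, all 3 times of 1 species moved one way and all 3 times of another moved the opposite way. The share of all features with this pattern was not computed, so whether 11 is many cannot be said. The 3 times of a species share its unstimulated RNA, and the difference was not tested by these signs. The F test over species gave unadjusted p between 0.26 and 0.58 for these genes, and none passed after adjustment. In 9 of them E. maxima was above 0 and E. tenella below 0, with mean changes over the 3 times that differed by 0.46 for RPL26L1, 0.42 for RPS21, 0.38 for RPL27A, 0.38 for RPS7, 0.34 for RPL30, 0.28 for RPL19, 0.26 for RPS3A, 0.24 for RPL27 and 0.14 for RPS10. RPS23 was above 0 with E. maxima and below 0 with E. acervulina, a difference of 0.47. RPSAP58 was above 0 with E. tenella and below 0 with E. maxima, a difference of 0.43.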

How the results depend on the processing

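The median change at 4 h stayed between -0.39 and -0.19 over all settings, that at 18 h between -0.35 and -0.16, and that from 4 h to 48 h between 0.09 and 0.33, the smallest each time without E. acervulina. At 48 h it lay between -0.08 and 0.02. The counts of calls moved more. The 6 calls at 4 h became 3 with arrays centred, 1 with arrays also scaled, 2 with features missing an array admitted, 2 with each of 3 row blocks of an array centred (chosen after seeing the data), 0 with 1 shared unstimulated RNA and 0 to 0 with a species left out. The 5 calls for the mean of the times became 1, 0, 0, 1, 0 and 0 to 0 under the same settings, and 2 with rows complete on all arrays, also chosen after seeing the data. The 2 calls of 48 h against 4 h became 0 with missing arrays admitted, 0 with a shared unstimulated RNA, 0 to 0 with a species left out and 1 with complete rows. Against array error, E. tenella at 48 h went from 1 to 0 under centring, scaling, median rows, single clones and complete rows. E. maxima at 4 h went from 4 to 1, 0 under scaling and 1 for single clones and complete rows, and at 48 h from 5 to 0 scaled, 3 by median rows, 3 by single clones and 0 with complete rows. E. acervulina at 4 h went from 40 to 14 scaled and 13 with complete rows, which left 39 of the 55 genes. The large minus small difference at 4 h, -0.034, was -0.021 scaled, 0.00041 by median rows, -0.0044 for single clones, 0.0028 with complete rows and -0.048 to -0.011 with a species left out. That of 48 h against 4 h, 0.013, was 0.044 scaled and -0.020 to 0.0023 with a species left out. At 48 h it was 0.035 with complete rows and -0.035 to 0.046 with a species left out, and from 18 h to 48 h 0.026 with complete rows. The E. acervulina median at 48 h was 0.11 scaled and 0.099 with row blocks centred. With a species left out, the SD over genes at 48 h was 0.12 to 0.17 and the median of 18 h against 4 h 0.029 to 0.088. The causes were not tested, beyond the smaller number of samples or genes in those that drop some. The fit with 1 shared unstimulated RNA also left out the species block. No further pairing was added elsewhere, because the replicates of a time are species, which already form the block. The medians of the 3 row blocks of an array differed by 0.046 to 0.27, and depth cannot be judged without intensities.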
